A study of Mus musculus with 9 samples.

Results

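The keratins Krt5, Krt7, Krt8, Krt14, Krt17, Krt18, Krt19, Krt20, Krt23 and Krt80 were followed in PPTR cells, a mouse intrahepatic cholangiocarcinoma (iCCA, bile duct cancer of the liver) line. The 10 genes were taken by symbol from 55276 symbols in a table of read counts, which holds 54 keratin genes in all. Control cells (Vcam1ctrl, labelled WT) were set beside 2 clones in which Vcam1, an adhesion receptor of the immunoglobulin family, had been targeted with Cas9 and a guide to its exon 2. The clones are Vcam1KO1 and Vcam1KO2, and each condition has 3 libraries of polyadenylated RNA, collected at different passages. All 3 conditions share the PPTR genotype, which includes Prom1CreERT2 and Rosa-ZsGreen and in which Cre is made where Prom1 is active, and the labels give no further treatment. The line was derived from liver cancer organoids and adapted to flat culture. Each knockout condition is a single clone, so that its 3 libraries repeat the clone and not the targeting. The control is not described as a clone.

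Keratins are the intermediate filaments of epithelia. A type I keratin (acidic) pairs with a type II keratin (basic or neutral), and filaments form only from such pairs. Krt8 and Krt18 are the first pair of simple epithelia, including hepatocytes and bile ducts, and Krt7 and Krt19 are added in bile duct cells, where they serve as diagnostic markers. Krt5 and Krt14 are the pair of basal squamous cells, and Krt17 is known for skin appendages and wounded epidermis.

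The 5 type I genes Krt14, Krt17, Krt19, Krt20 and Krt23 lie in the type I cluster of chromosome 11, and the 4 type II genes Krt5, Krt7, Krt8 and Krt80 in the type II cluster of chromosome 15. Krt18 (ENSMUSG00000023043.7) is the exception, a type I gene on chromosome 15 at 102028180 to 102032027 on the plus strand of GRCm38. It stands next to its partner Krt8 (ENSMUSG00000049382.10), which spans 101996698 to 102004482 on the minus strand. All 10 genes are annotated as protein coding.

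The bases before the transcript start are shown for 4 of these genes. The RefSeq table for GRCm38.p6 matched 7 of the 10 genes, and windows of 250 bases before the start were searched on both strands. The runs below stop where an annotated first exon of the gene begins. Capitals mark CAGGTG or its reverse complement CACCTG, an E-box of the kind that Snail and Zeb repressors are known to bind, and TATAAA.
Krt18, chr15:102027966-102028179, plus strand: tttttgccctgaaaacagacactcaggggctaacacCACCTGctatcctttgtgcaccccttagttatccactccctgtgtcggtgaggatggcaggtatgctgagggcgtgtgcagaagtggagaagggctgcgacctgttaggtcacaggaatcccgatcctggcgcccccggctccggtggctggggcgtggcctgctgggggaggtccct
Krt23, chr11:99493138-99493370, minus strand: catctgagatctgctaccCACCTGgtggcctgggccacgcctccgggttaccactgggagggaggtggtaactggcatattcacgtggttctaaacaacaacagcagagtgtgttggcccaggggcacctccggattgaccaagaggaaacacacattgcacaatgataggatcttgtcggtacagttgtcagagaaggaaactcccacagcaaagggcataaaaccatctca
Krt5, chr15:101712906-101713155, minus strand: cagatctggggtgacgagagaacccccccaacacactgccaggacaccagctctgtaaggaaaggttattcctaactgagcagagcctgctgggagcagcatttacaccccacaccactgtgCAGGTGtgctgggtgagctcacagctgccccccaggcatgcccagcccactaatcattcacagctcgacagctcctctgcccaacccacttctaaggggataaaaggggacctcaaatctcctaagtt
Krt20, chr11:99438154-99438403, minus strand: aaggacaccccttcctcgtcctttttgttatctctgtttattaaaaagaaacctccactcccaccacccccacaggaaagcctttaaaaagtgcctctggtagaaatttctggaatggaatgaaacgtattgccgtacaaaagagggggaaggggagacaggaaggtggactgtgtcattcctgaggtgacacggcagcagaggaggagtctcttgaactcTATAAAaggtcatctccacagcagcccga
CAGGTG was found in 5 of the 7 windows (Krt5, Krt7, Krt8, Krt18 and Krt23), beside 17.2% of 32851 mouse windows of the same length. In Krt8 it lay 111 to 106 bases before the RefSeq start, inside the first exon that GENCODE draws from farther upstream. In Krt7, 162 of the 250 window bases lay in annotated exons, and the match came after the first of these exons began. GGGCGG was found in 1 window, that of Krt7, with 4 matches, beside 32.7% of all windows. TATAAA was found in 1 window, that of Krt20, at 29 to 24 bases before the start, beside 12.4% of all windows. TGANTCA and AACNGGTT, searched in the same way, were in 0 of the 7 windows, beside 6.75% and 1.79% of all. None of the matches in the 7 windows overlapped another. A match of letters is a description and does not show that a factor was bound.

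Library totals lay between 53415907 and 125223073 counts, and levels are given in CPM, in which every gene count is divided by a TMM-adjusted library total. Between libraries of a group, counts differed by more than sampling noise (chi-square per degree of freedom of 35.8 to 275), so none was a repeat deposit. The third Vcam1KO1 library stood farther from its group (240 and 275) than the other two did from each other (36.0), and so did the third Vcam1KO2 library (166 and 113, against 35.8). Without either of them the counts of keratins called were still 9 for all clone libraries against the control, 10 for Vcam1KO1, 9 for Vcam1KO2 and 6 between the clones. Without the third Vcam1KO2 library the 6 between the clones included Krt7, so they were not all the same keratins. Vcam1 itself was at 221 to 329 CPM in Vcam1ctrl and at 83.0 to 128 CPM in the 6 clone libraries, with a log2 fold change of -1.36 (adjusted p = 2.1e-04, edgeR quasi-likelihood). Its messenger was thus still counted in the clones, and this RNA level does not check the protein. The paper reports that Vcam1 was lost in both clones by quantitative RT-PCR and by flow cytometry.

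**Figure D1:**
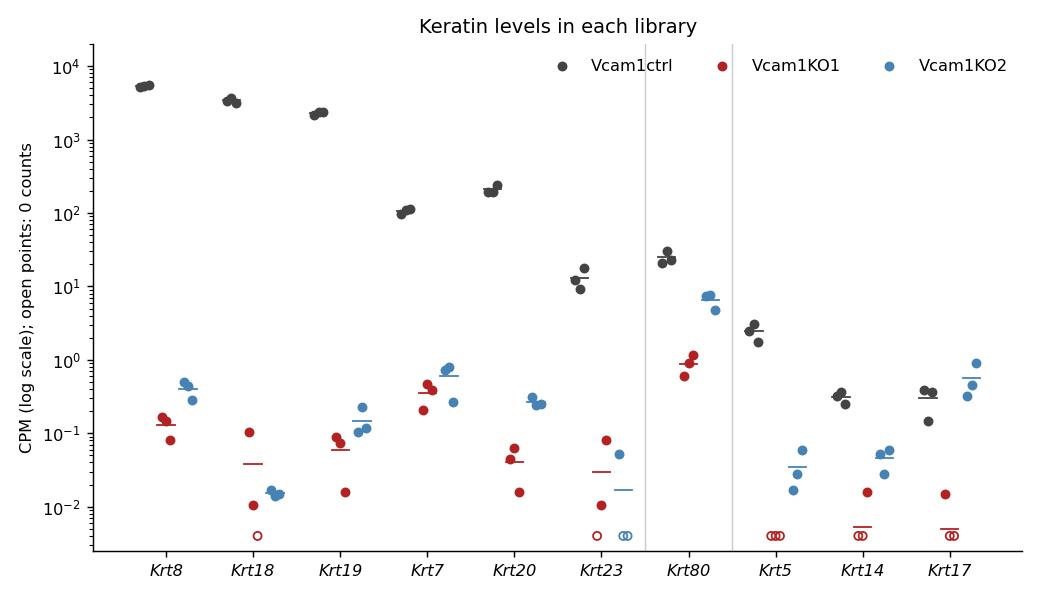
Level of each keratin in each of the 9 libraries, in CPM on a log axis, with a short line at the mean of 3 libraries and open points at the bottom for libraries with 0 counts. The control libraries of Krt8, Krt18 and Krt19 stand at 2129 CPM or higher and all clone libraries of these genes at 0.497 CPM or lower. In Vcam1KO2, Krt80 stands at 4.81 CPM or higher, and the Krt17 libraries overlap those of the control.

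In the control cells the simple-epithelial keratins were among the most abundant messengers. By mean CPM, Krt8 ranked 4th, Krt18 9th and Krt19 23rd of all symbols in the table. The 10 keratins together took 1.14% ± 0.044 (SD, n = 3) of all counts in Vcam1ctrl. In the clones their share was 1.27e-04% to 1.73e-04% of counts in Vcam1KO1 and 6.95e-04% to 9.50e-04% in Vcam1KO2.

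By the test across all genes, 9 of the 10 keratins fell in the 2 clones as a group and 0 rose, where 21.2% of the 17672 genes tested fell and 21.7% rose. Against the control, 10 of 10 fell in Vcam1KO1 (background 30.0% lower and 29.9% higher) and 9 of 10 in Vcam1KO2 (background 26.1% lower and 25.3% higher), and 0 rose in either. In 9 of 10, every clone library was below every control library, as it was in 23.0% of all genes tested. The exception in each count of 9 was Krt17. All 10 passed the filter on low counts, but Krt5, Krt14, Krt18, Krt19 and Krt23 passed only through their control libraries and so had to differ, and the counts are therefore a description of the 10 and not support for a shared change. Both clones were set against the same 3 control libraries. The median log2 fold change of the 10 was -8.46 in the combined comparison, where that of all genes tested was 0.07. In Vcam1KO1 it was -9.67, or -8.52 with Krt5 at the bound that 0 counts allow, and in Vcam1KO2 it was -8.53, where the medians of all genes were 0.02 and 0.00. In the single-clone comparisons the p values measure the spread between libraries from different passages of the same cultures. In the combined comparison the differences between the clones count as spread too. In bulk RNA, fewer cells that express a keratin and less of its RNA per cell cannot be told apart.

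Krt8, the type II keratin of simple epithelia, was at 5201, 5361 and 5570 CPM in Vcam1ctrl. It was at 0.165, 0.146 and 0.0798 CPM in Vcam1KO1, and at 0.497, 0.438 and 0.281 CPM in Vcam1KO2. The groups did not overlap, and the control libraries lay within a narrow range. In raw counts this was 290462 to 652736 per control library against 5 to 31 per clone library. The log2 fold change was -15.29 (SE 0.34, adjusted p = 8.5e-09, edgeR) in Vcam1KO1 and -13.70 (SE 0.32, adjusted p = 1.2e-08, edgeR) in Vcam1KO2. From summed counts, Krt8 was 40153-fold lower in Vcam1KO1 (95% counting interval 28127 to 59513) and 13313-fold lower in Vcam1KO2 (10682 to 16816). Such intervals cover counting error only. Of the 31-base words in Krt8 transcripts, 32.2% also occur in the pseudogene Krt8-ps, which held 76 to 331 counts in the control libraries and 0 in the clones, so that the share between these 2 rows is uncertain.

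Krt18, the type I partner of Krt8, was at 3369, 3676 and 3179 CPM in Vcam1ctrl. In Vcam1KO1 it was at 0.105, 0.0104 and 0 CPM, and in Vcam1KO2 at 0.0171, 0.0141 and 0.0148 CPM. The clone libraries held 7, 1, 0, 1, 1 and 1 counts, and the first Vcam1KO1 library stood above the other 5. The difference from the control was the second largest fall of all genes tested, with a log2 fold change of -16.90 (SE 0.61, adjusted p = 2.5e-07, edgeR) for both clones together. From summed counts Krt18 was 95045-fold lower in Vcam1KO1 (95% counting interval 48236 to 220151). In Vcam1KO2, from 3 counts in all, the ratio was 221296 (75723 to 1073090). Of the 31-base words of Krt18, 11.4% are shared with other genes.

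Krt19, a small type I keratin used as a bile duct marker, was at 2129, 2341 and 2406 CPM in Vcam1ctrl. It was at 0.0898, 0.0730 and 0.0160 CPM in Vcam1KO1 and at 0.103, 0.226 and 0.118 CPM in Vcam1KO2. All clone libraries were far below the control libraries. The log2 fold change was -15.14 (SE 0.41, adjusted p = 2.2e-08, edgeR) in Vcam1KO1 and -13.87 (SE 0.39, adjusted p = 3.0e-08, edgeR) in Vcam1KO2. Only 0.439% of its 31-base words are shared with another gene, so that its counts are little exposed to near-identical copies.

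Krt7, the type II keratin of ductal epithelia, was at 95.6, 111 and 114 CPM in Vcam1ctrl. In Vcam1KO1 it was at 0.210, 0.470 and 0.383 CPM, and in Vcam1KO2 at 0.720, 0.806 and 0.266 CPM. The clones overlapped each other, and neither came near the control. The log2 fold change of Krt7 was -8.20 (SE 0.42) in Vcam1KO1 and -7.48 (SE 0.40) in Vcam1KO2, both past the threshold, so that 0.353% and 0.569% of the control level were left by summed counts.

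Krt20, a type I keratin of intestinal and urothelial surface cells, was at 194, 195 and 238 CPM in Vcam1ctrl. It was at 0.0449, 0.0626 and 0.0160 CPM in Vcam1KO1 and at 0.308, 0.240 and 0.251 CPM in Vcam1KO2. The 3 groups did not overlap. Its log2 fold change was -12.16 (SE 0.26, adjusted p = 8.1e-09, edgeR) in Vcam1KO1 and -9.61 (SE 0.23, adjusted p = 1.2e-08, edgeR) in Vcam1KO2. None of its 31-base words is shared with another gene.

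Krt23, a type I keratin found in several gland-forming epithelia, was at 12.1, 9.15 and 18.0 CPM in Vcam1ctrl. The Vcam1KO1 libraries held 0, 1 and 5 counts of it and the Vcam1KO2 libraries 3, 0 and 0 counts. At these counts the clones could not be told apart. Summed counts were 499.7-fold lower in Vcam1KO1 (95% counting interval 229 to 1363) and, from 3 counts, 873-fold lower in Vcam1KO2 (298 to 4234). The call against the control had an adjusted p of 4.2e-05 (edgeR) for both clones together.

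Krt80, a type II keratin found in many epithelia, kept more of its control level than the keratins above. It was at 20.9, 30.4 and 23.0 CPM in Vcam1ctrl, at 0.599, 0.897 and 1.17 CPM in Vcam1KO1 and at 7.33, 7.68 and 4.81 CPM in Vcam1KO2. The 3 groups did not overlap and stood in the order control, Vcam1KO2, Vcam1KO1. Krt80 changed by a log2 fold of -4.80 (SE 0.31, adjusted p = 1.8e-06, edgeR) in Vcam1KO1 and -1.91 (SE 0.27, adjusted p = 3.1e-04, edgeR) in Vcam1KO2. By summed counts 3.75% of the control level was left in Vcam1KO1 and 28.0% in Vcam1KO2. With both clones as a single group the change was -2.73 (SE 0.76, adjusted p = 0.017, edgeR), since the spread between the clones then counts as error. That call was lost without the second control library (adjusted p = 0.057, edgeR).

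**Figure D2:**
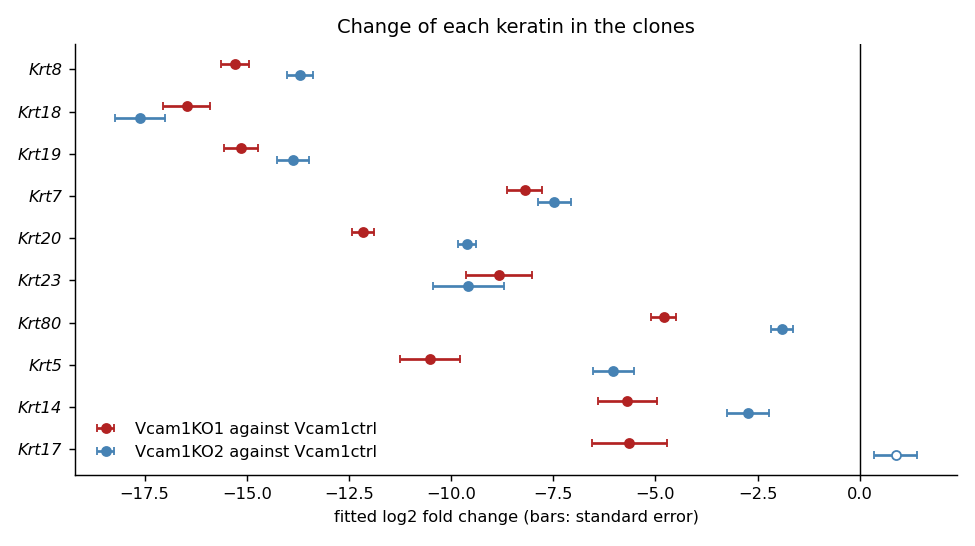
Fitted log2 fold change of each keratin in Vcam1KO1 and Vcam1KO2 against Vcam1ctrl, with bars of 1 standard error, filled points for an adjusted p below 0.05 and an open point otherwise. Krt17 in Vcam1KO2, at 0.87, is the open point and lies to the right of 0. Krt5 in Vcam1KO1 is fitted from 0 counts, so its position depends on the prior count.

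The squamous keratins were minor in the control cells. Krt5, the type II keratin of basal squamous cells, was at 2.45, 3.08 and 1.76 CPM in Vcam1ctrl. It had 0 counts in each Vcam1KO1 library, and 1, 2 and 4 counts in the Vcam1KO2 libraries. With 3 counts over the group as the limit, Krt5 was at least 178-fold lower in Vcam1KO1. In Vcam1KO2 it was 66.7-fold lower by summed counts (95% counting interval 32.2 to 167). Krt5 shares 12.8% of its 31-base words with other genes, mainly Krt6a.

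Krt14, the type I partner of Krt5, was at 0.327, 0.369 and 0.253 CPM in Vcam1ctrl, from 20 to 41 counts per library. It had 0, 0 and 1 counts in Vcam1KO1 and 3, 2 and 4 counts in Vcam1KO2. All clone libraries were below all control libraries. By summed counts it was 6.84-fold lower in Vcam1KO2 (95% counting interval 3.43 to 15.5), and 70.5-fold lower in Vcam1KO1 (12.3 to 2819), the latter from 1 count. Krt14 and Krt16 share 31-base words (17.6% of those of Krt14), and these 2 rows may share reads.

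Krt17 was the only one of the 10 that did not fall in both clones. It was at 0.382, 0.148 and 0.367 CPM in Vcam1ctrl, with 8 to 48 counts per library. Vcam1KO1 held 1, 0 and 0 counts, whereas Vcam1KO2 was at 0.326, 0.452 and 0.902 CPM. The Vcam1KO2 libraries overlapped the control libraries and all stood above those of Vcam1KO1. The log2 fold change was -5.64 (SE 0.92, adjusted p = 5.5e-04, edgeR) in Vcam1KO1 and 0.87 (SE 0.53, adjusted p = 0.20, edgeR) in Vcam1KO2. With both clones as a single group it was -0.10 (SE 1.33, adjusted p = 0.96, edgeR), a value that averages a clone without Krt17 and a clone with it. Krt17 shares 15.8% of its 31-base words with other genes, mainly Krt14.

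The clones were then set against each other. Of the 10 keratins, 6 were lower in Vcam1KO1 than in Vcam1KO2 and 0 were higher, where 18.5% of all genes tested were lower and 20.2% higher. The libraries of the clones did not overlap for 7 of the 10, as for 54.9% of all genes tested. The difference was -6.52 on the log2 scale for Krt17 (SE 0.89, adjusted p = 5.8e-04, edgeR), -2.90 for Krt80 (SE 0.29, adjusted p = 1.1e-04, edgeR) and -2.55 for Krt20 (SE 0.33, adjusted p = 4.2e-04, edgeR). Krt8 differed by -1.60 (SE 0.29, adjusted p = 0.0026, edgeR). Krt5 (-4.49, adjusted p = 0.017, edgeR) and Krt14 (-2.95, adjusted p = 0.027, edgeR) rested on at most 4 counts per clone library, and with 0 Krt5 counts in Vcam1KO1 the fitted size for Krt5 depends on the prior count. The Krt14 difference passed the threshold no longer without any 1 of 4 clone libraries, at adjusted p between 0.065 and 0.096 (edgeR). Krt19 missed the threshold (-1.27, adjusted p = 0.054, edgeR) and passed it by limma-voom (adjusted p = 0.031) and DESeq2 (adjusted p = 0.023). Krt7, Krt18 and Krt23 did not pass (adjusted p = 0.17, 0.42 and 0.69, edgeR), and Krt7 passed without the third Vcam1KO2 library (-1.11, adjusted p = 0.018, edgeR). When the test demanded a change above 2-fold, 3 keratins were called, Krt17, Krt20 and Krt80.

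Levels of different keratins were compared per kilobase of annotated exon. In Vcam1ctrl, Krt8 was at 2746 ± 94.5 CPM per kb, Krt18 at 2372 ± 175 and Krt19 at 1236 ± 78.2 (SD, n = 3). Krt20 followed at 109 ± 13.1, Krt7 at 15.2 ± 1.40, Krt23 at 8.37 ± 2.88 and Krt80 at 3.88 ± 0.783. The summed level of the 6 type I genes was 1.35 ± 0.076 times that of the 4 type II genes. Krt8 exceeded its partner Krt18 by a factor of 1.07 to 1.29. Krt18 and Krt19 together held most of the type I level, and Krt8 nearly all of the type II level. In per-length terms Krt8 made up 42.3%, Krt18 36.5% and Krt19 19.0% of the 10.

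Among the 10, the type I to type II ratio was lower in the clones. It was 0.277 to 0.744 in Vcam1KO1 and 0.331 to 0.854 in Vcam1KO2, from sums below 2 CPM per kb. The ratio leaves out the other keratins, among them the type I genes Krt10 and Krt13, which exceeded each of the 10 per kb in both clones. A ratio over all keratins was not computed. In Vcam1KO2 the remaining Krt8 exceeded Krt18 13.9-fold to 22.8-fold, on 1 count of Krt18 per library. In Vcam1KO1 this ratio was 1.15 in the first library, within the control range, and 10.3 in the second, and the third held 0 counts of Krt18. Krt80 took 0.060% of the per-length sum of the 10 in the control, 38.5% in Vcam1KO1 and 52.0% in Vcam1KO2, and Krt17 took 19.0% in Vcam1KO2. Counting libraries with more than 3 counts of a gene, all 10 keratins were present in each control library, 4 to 5 in each Vcam1KO1 library and 6 to 8 in each Vcam1KO2 library.

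**Figure D3:**
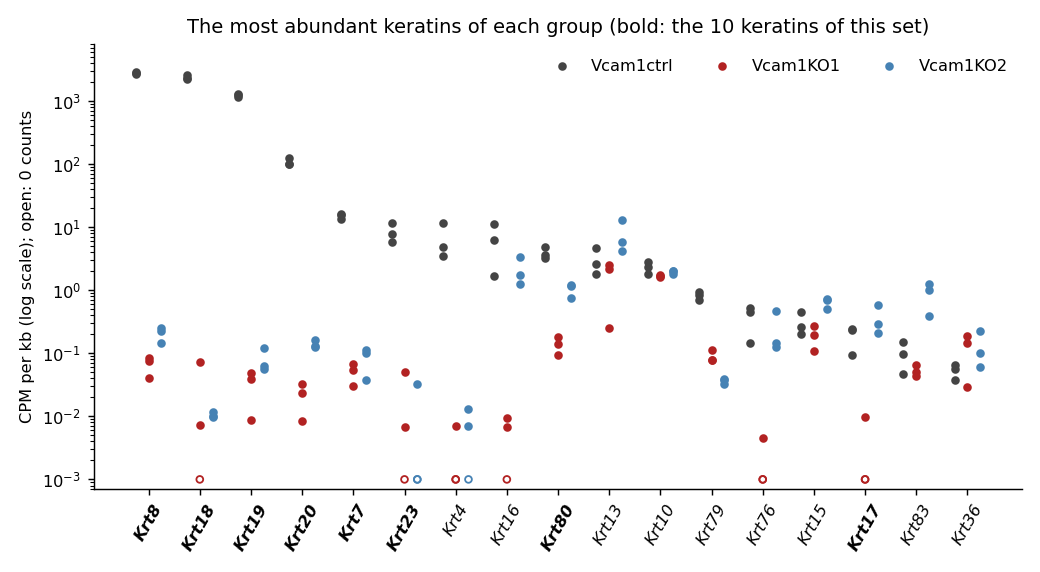
Level per kb of exon, on a log axis, of the keratins that are among the 8 highest in any of the 3 groups, with a point per library, open points for 0 counts and the 10 keratins in bold. Krt8, Krt18 and Krt19 lead in the control, Krt10 and Krt13 in Vcam1KO1, and Krt13 and Krt16 in Vcam1KO2.

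The other 44 keratins were then examined, to see which keratin RNA was left. Of these, 12 passed the filter on low counts, 4 fell in the clones together and 0 rose. For this list and those below, 21.2% of all genes tested fell in the clones together and 21.7% rose. Krt4, Krt6a, Krt12 and Krt78 passed only through the control libraries, and 3 of these are among the 4 that fell. In Vcam1KO2 alone 1 rose, the hair keratin Krt83, from 0.181 to 1.64 CPM (3.24, adjusted p = 8.3e-04, edgeR). The median of the 12, as log2 fold change in the clones together, was -1.84. The 10 keratins made up 99.5% to 99.7% of all keratin counts in the control, 11.0% to 24.3% in Vcam1KO1 and 17.0% to 31.1% in Vcam1KO2. Krt10, the keratin of suprabasal epidermis, was the highest per length in Vcam1KO1 at 1.69 ± 0.039 CPM per kb. It was at 2.30 ± 0.491 in the control and did not pass the test (adjusted p = 0.21, edgeR, both clones together). Krt13, of internal squamous epithelia, was the highest in Vcam1KO2 at 7.58 ± 4.64 CPM per kb, and lower in Vcam1KO1 by 2.20 on the log2 scale (adjusted p = 0.041, edgeR). Krt13 against the control did not pass (adjusted p = 0.60, edgeR). With lengths from the longest transcript, Krt13 came before Krt10 in Vcam1KO1.

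Krt16, a type I keratin of stressed epidermis, was like Krt17 near 0 in Vcam1KO1 and counted in Vcam1KO2. It was at 9.84 CPM on average in the control, 0.00847 in Vcam1KO1 and 3.31 in Vcam1KO2. Vcam1KO1 was lower than the control by a log2 fold of -9.87 (adjusted p = 3.8e-05, edgeR) and lower than Vcam1KO2 by -8.30 (adjusted p = 3.8e-04, edgeR), and Vcam1KO2 against the control gave -1.57 (adjusted p = 0.053, edgeR). Krt4, a type II keratin of the oral and oesophageal lining, fell from 14.3 CPM to 0.00499 and 0.0144 CPM (log2 fold change -10.32, adjusted p = 7.8e-06, edgeR, both clones together).

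**Figure D4:**
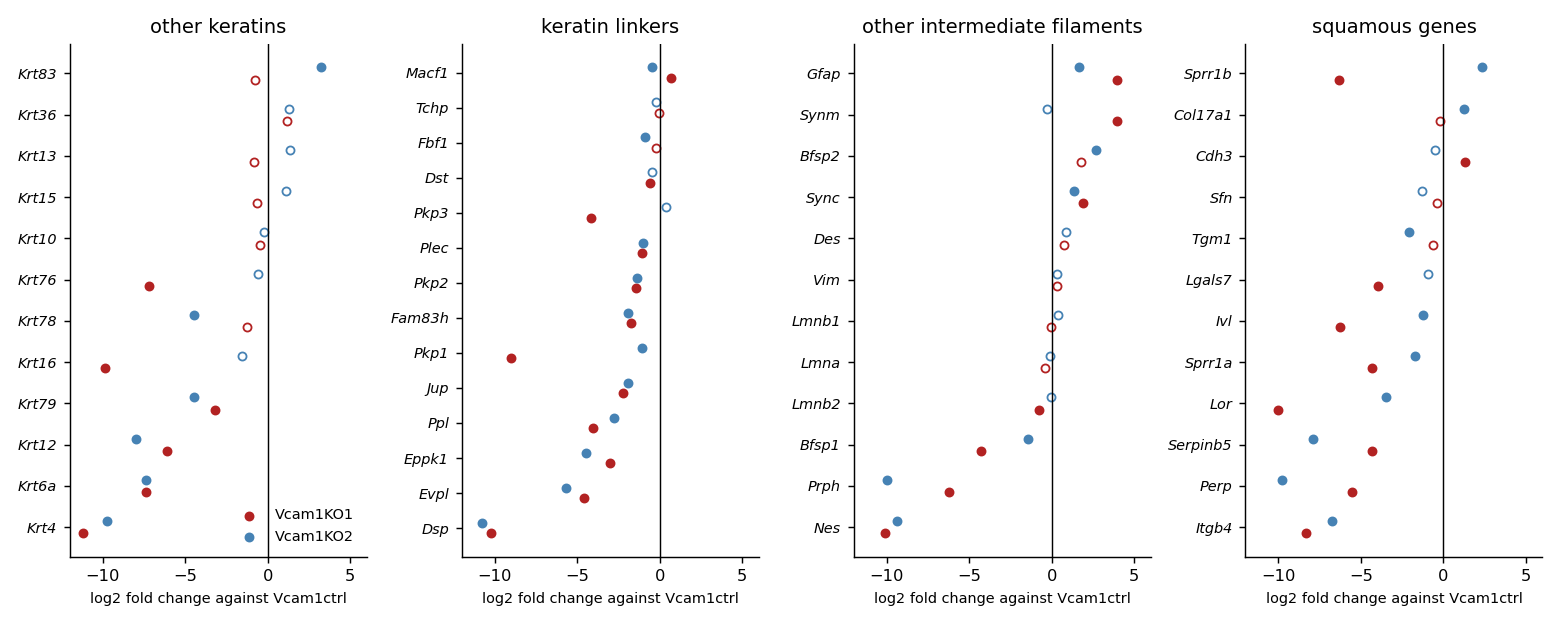
Log2 fold change against Vcam1ctrl of the tested genes in 4 lists, Vcam1KO1 in red and Vcam1KO2 in blue, filled where the adjusted p is below 0.05. Dsp and Nes stand near -10 in both clones, Vim and Lmna near 0, and Pkp1, Pkp3 and Sprr1b lie apart between the clones.

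Keratin filaments are tied to desmosomes, hemidesmosomes and other filaments by linker proteins. Of 14 linker genes, 9 fell in the clones together, 0 rose and 5 did not pass, with a median log2 fold change of -1.61. Dsp, the desmoplakin that anchors keratins at desmosomes, fell from 392 CPM to 0.328 in Vcam1KO1 and 0.222 in Vcam1KO2 (log2 fold change -10.46, adjusted p = 9.8e-08, edgeR). Plec, the plectin that crosslinks keratins with other filaments, fell from 1046 to 489.8 and 529 CPM (-1.04, adjusted p = 8.7e-04, edgeR). Dst changed by -0.52 (adjusted p = 0.023, edgeR), and Macf1, a linker of actin and microtubules, by 0.22 (adjusted p = 0.64, edgeR). In the single clones Macf1 moved in opposite directions, by 0.68 in Vcam1KO1 (adjusted p = 0.0016, edgeR) and -0.48 in Vcam1KO2 (adjusted p = 0.013, edgeR).

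Other intermediate filaments did not follow the keratins as a list. Of the 12 tested of 16, 3 rose, 3 fell and 6 did not pass, with a median of 0.25. Of all genes tested, 21.7% rose and 21.2% fell. Prph, among those that fell, passed the filter only through the control libraries. Vim, the vimentin of mesenchymal and many cultured cells, was at 2583 CPM in the control, 3296 in Vcam1KO1 and 3217 in Vcam1KO2, a difference that did not pass (0.33, adjusted p = 0.16, edgeR). Lmna, a nuclear lamin, gave -0.22 (adjusted p = 0.31, edgeR). Nes, the nestin of progenitor cells, fell from 352 CPM to 0.330 and 0.530 (-9.69, adjusted p = 1.1e-05, edgeR). Gfap rose by 3.24 (adjusted p = 0.015, edgeR) at levels near 1 CPM or lower.

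Of 15 tested transcription and splicing factors of keratin-bearing epithelia, 10 fell and 2 rose, with a median of -3.01. Grhl3, Cdx2, Esrp1 and Esrp2, which are 4 of the 10 that fell, passed the filter only through the control libraries and so had to be lower. Cdx2, an intestinal factor, fell from 17.7 CPM to 0.00348 and 0 (adjusted p = 4.6e-07, edgeR), and Klf5, a factor of proliferating epithelia, fell from 104 CPM to 0.606 and 5.06 (-5.20, adjusted p = 0.0010, edgeR). Klf4 changed by -2.44 (adjusted p = 0.010, edgeR). Its libraries overlapped, at 115 to 424 CPM in the control and 15.0 to 119 CPM in the clones. Trp63, the regulator of basal squamous keratins, moved the other way, from 0.299 CPM to 12.4 and 4.36 (4.78, adjusted p = 8.1e-04, edgeR), while Krt5 and Krt14 were near 0 in the same libraries.

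Of 12 tested cornified envelope and basal squamous genes, 5 fell and 0 rose in the clones together, with a median of -1.99. Lor, Tgm1 and Serpinb5 passed the filter only through the control libraries. The clones differed, with 8 lower and 1 higher in Vcam1KO1 and 7 lower and 2 higher in Vcam1KO2. Of all genes tested, 30.0% were lower and 29.9% higher in Vcam1KO1, and 26.1% lower and 25.3% higher in Vcam1KO2. Between the clones, 7 were lower in Vcam1KO1 and 3 higher, where 18.5% of all genes tested were lower and 20.2% higher. Itgb4, the integrin chain of hemidesmosomes, fell from 770 CPM to 2.41 and 7.08 (-7.34, adjusted p = 1.0e-05, edgeR). Sprr1a, of the cornified envelope, fell from 551 CPM to 27.1 in Vcam1KO1 and 165 in Vcam1KO2 (-2.52, adjusted p = 0.031, edgeR). Perp, of desmosomes, gave -6.45 (adjusted p = 0.0014, edgeR).

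Genes beside the keratin clusters were counted too. Of 10 tested protein-coding neighbours, 4 fell, 1 rose and 5 did not pass, with a median of -0.40. Of all genes tested, 21.2% fell and 21.7% rose. Eif4b, whose start lies 45.6 kb from that of Krt18, fell from 998 to 524 and 638 CPM (-0.78, adjusted p = 0.0016, edgeR). Tns2, at 72.2 kb, gave 0.56 (adjusted p = 0.018, edgeR), and Spryd3, at 108 kb, gave 0.16 (adjusted p = 0.63, edgeR). Spryd3 was lower in Vcam1KO1 (-0.30, adjusted p = 0.014, edgeR) and higher in Vcam1KO2 (0.51, adjusted p = 9.8e-04, edgeR). Around the cluster of chromosome 11, Eif1 changed by -1.22 (adjusted p = 0.0050, edgeR) and Hap1 by -4.24 (adjusted p = 4.0e-06, edgeR). Eif4b and Tns2 were at 235 CPM or more on average in each clone, where Krt8 and Krt18 were near 0. The 3 neighbours of Krt8 and Krt18 at lower coordinates held at most 1 count per library and were not tested.

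The 10 keratins were left out of the genes ranked by correlation. Over the 9 libraries, the other genes whose log2 CPM correlated best with Krt8 were Slc35f2, 1700110K17Rik and Cdh17 (Pearson r of 0.999, 0.998 and 0.998). For Krt18 they were Dmrt2, Spats2l and Vat1l (0.999 each), and for Krt19 Lad1, Fermt1 and Cdh17 (0.999 each). The values describe a split between the same 3 control and 6 clone libraries, and 201, 220 and 215 of 17662 genes had an r above 0.99 with Krt8, Krt18 and Krt19.

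Markers of the cell types that such a culture could hold were counted beside the keratins, with levels summed over each whole list. Of 8 tested biliary markers, 5 fell, 1 rose and 2 did not pass, where Epcam, Onecut1, Cftr and Cldn4 passed the filter only through the control libraries. The 10 listed genes summed to 2784 to 3772 CPM in the control, 10618 to 11077 in Vcam1KO1 and 7634 to 11081 in Vcam1KO2. Most of that sum was Spp1, which rose (2.03, adjusted p = 8.2e-05, edgeR). Cdh1, the epithelial cadherin, fell from 533 CPM to 1.34 and 0.525, and Epcam from 22.0 CPM to 0.0334 and 0.00493. Sox9, a factor of bile duct cells, was at 127, 232 and 170 CPM (adjusted p = 0.16, edgeR). Of 6 tested hepatocyte markers, 5 fell and 0 rose, and Apoa1, Ttr, Serpina1a and Hnf4a passed the filter only through the control libraries. The 8 listed genes summed to 252 to 441 CPM in the control, 2.03 to 3.89 in Vcam1KO1 and 0.784 to 1.18 in Vcam1KO2, and Hnf4a was at 226 CPM in the control and at 0 counts in every clone library.

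Of 7 tested fibroblast markers, 6 rose and 0 fell in the clones together, with a median of 4.15. In Vcam1KO1 alone 5 rose and 1 fell, Dcn, from 74.6 to 4.34 CPM (-4.11, adjusted p = 2.2e-04, edgeR). The summed level of the 8 listed genes was 427 to 828 CPM in the control, 10463 to 13043 in Vcam1KO1 and 6211 to 7521 in Vcam1KO2, led by Col1a1 (from 99.4 to 8530.3 and 4735 CPM). Of 3 tested haematopoietic markers 2 fell and 0 rose, and Ptprc passed the filter only through the control libraries. The 5 listed genes summed to 7.49 to 20.7 CPM in the control, 5.11 to 8.32 in Vcam1KO1 and 6.94 to 9.44 in Vcam1KO2. Ptprc, their defining gene, was at 0.410 CPM or less on average. Csf1r, the other that fell, was at 3.54 to 12.5 CPM in the control and 0.424 to 1.53 CPM in the clones. Its log2 fold change was -3.06 (adjusted p = 0.0013, edgeR, both clones together). Cd68, at 3.52 to 7.71 CPM in the control and 4.25 to 8.80 CPM in the clones, did not pass (adjusted p = 0.55, edgeR). Of 3 tested endothelial markers 0 passed the test by edgeR in the clones together, and the 5 listed genes summed to 0.932 to 2.43 CPM over all libraries. The part of these cell type markers in the keratin result was not tested.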

How the data were processed

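The members and the gene lists were chosen with earlier results of these data known. The authors pseudoaligned the reads with kallisto 0.46.1 to mouse transcripts of GRCm38, strand-specific, and deposited estimated counts per gene symbol, without normalization. Of 55276 symbols 0 were blank and 0 values were not whole, and 0 columns of values were left out. Libraries were grouped by title into 3 conditions of 3.

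Low counts were removed with filterByExpr, which kept 17672 genes at a cutoff of 0.152 CPM, and library sizes were scaled by TMM. Models were fitted in edgeR 4.0.16 under R 4.3.3. A 2-group model compared the 6 Vcam1KO libraries with the 3 Vcam1ctrl libraries. A 3-group model gave the contrasts of Vcam1KO1 and of Vcam1KO2 with Vcam1ctrl, and of Vcam1KO1 with Vcam1KO2. Adjusted p are two-sided, by the quasi-likelihood F test of edgeR, corrected after Benjamini and Hochberg over every gene in the model, with a threshold of 0.05. The fit was checked on simulated counts. Intervals of ratios of summed counts are exact binomial at 95% and cover counting error only. A count of 3 was the limit of detection. Correlations used log2 CPM with a prior count of 2.

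From each list the text names the 3 genes with the highest mean CPM and the largest rise and fall past the threshold, and beside Krt8 and Krt18 the nearest tested neighbours. Krt10, Krt83, Krt8-ps, Dcn, Pkp1, Pkp3 and Sprr1b, and the genes named for passing the filter only through control libraries, were named after their values were seen. Some genes and alleles that the rule or the genotype covers are not reported here. Lengths, positions and shared 31-base words are from GENCODE vM21, and promoters from RefSeq on GRCm38.p6. Alternatives were limma-voom (limma 3.58.1), DESeq2 1.42.0, upper-quartile and RLE scaling, no filter, a mean of at least 1 CPM, a demand for a 2-fold change, the mean of both clone contrasts, models of the 6 libraries compared, leaving out each library and lengths from the longest transcript.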

Additional observations from a re-analysis of the deposited data

Results flagged for a closer look

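For 6 keratins the clones differed from each other by edgeR's quasi-likelihood test of the difference itself, each being lower in Vcam1KO1 than in Vcam1KO2. The share over all genes tested was 18.5% lower and 20.2% higher in Vcam1KO1. The log2 difference was -6.52 for Krt17, -4.49 for Krt5, -2.95 for Krt14, -2.90 for Krt80, -2.55 for Krt20 and -1.60 for Krt8. In Krt17 the Vcam1KO1 libraries held 1, 0 and 0 counts and the Vcam1KO2 libraries 19, 32 and 61, and in Krt80 they held 40, 86 and 73 against 428, 543 and 325. For Krt5 the value is fitted from 0 counts in Vcam1KO1, so that its size depends on the prior count. Krt14 held at most 4 counts per clone library, and its call was lost in 6 of 15 alternatives.

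Among the 6 clone libraries, the first Vcam1KO1 library was the highest for Krt18, at 0.105 CPM from 7 counts. Its gap to the nearest other library was 0.837 of the whole range, above Dixon's critical value for 6 values. At a 95% criterion chance flags such a library now and then.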

How the results depend on the processing

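Against Vcam1ctrl, 10 keratins were called in Vcam1KO1 and 9 in Vcam1KO2 under every alternative run except the filter at a mean of 1 CPM, which left 7 keratins to test, all 7 called. For both clones together the count of 9 became 7 under that filter, 10 with the average of the clones' contrasts (Krt17 at -2.39, adjusted p = 0.0083, edgeR), and 8 with a 2-fold demand (Krt80, adjusted p = 0.072, edgeR) or without the second control library. Between the clones the count of 6 became 3 under the filter at a mean of 1 CPM, where fewer keratins were tested. It became 3 with a 2-fold demand, 5 without the second Vcam1KO1 library, and 7 by limma-voom and DESeq2. In a fit on the 6 libraries compared it became 4, with 5 keratins left by the filter and Krt5 and Krt14 not tested. The direction turned only in differences that did not pass the threshold. Leaving out 1 library at a time gave -0.97 to 0.17 for Krt17 in both clones together, -1.13 to 1.71 for Krt18 between the clones (negative without the first Vcam1KO1 library) and -1.14 to 4.13 for Krt23 between the clones (negative without the third). The cause was not tested. No paired analysis was possible because the library numbers follow the order of the labels and pair nothing across conditions. With at most 7 counts per clone library in Krt18, Krt23, Krt5 and Krt14, depth limits what could be seen between the clones.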
